A study of Mus with 6 samples.

Results

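The genes described here encode the proteins of the cytosolic ribosome, the particle that translates nuclear-encoded mRNAs. They were taken by name, as protein-coding genes with symbols of the forms Rpl, Rps and Rplp followed by a number. The Rps3a copies, the S6 kinases and the Rpsa pseudogenes were left out. The rule used no measured value and found 79 genes among 54532, of which 49 encode proteins of the large (60S) subunit and 30 proteins of the small (40S) subunit. RNA was sequenced in 6 mouse libraries, 3 labelled wild type (WT) and 3 labelled CNTNAP4-KO (KO), for Cntnap4, a neuronal adhesion gene of the neurexin superfamily. The labels give male basolateral amygdala, a nucleus known for its role in fear learning, for all 6. Neither age, strain nor the deleted part of Cntnap4 was given in the labels, and no treated sample was analysed here although the study's title names a bacterial treatment.

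Each ribosome holds 1 copy of nearly every one of these proteins, so cells make them in matched amounts. Their mRNAs are short, abundant and stable, and most begin with a tract of pyrimidines through which the kinase mTOR controls how often they are translated. In neurons, ribosomes in dendrites and axons support local protein synthesis during plasticity. Transcripts were quantified as FPKM, fragments counted per kilobase of gene and scaled to library size, so that levels of different genes can be set side by side per length. Values are given in the order of replicates 1 to 3, and each difference sets KO against WT as log2(FPKM + 0.5), positive where KO is higher, with its standard error.

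Between 17647556 and 20813211 reads fell in genes in each library. Mitochondrial transcripts took 3.42% of reads in WT replicate 3 (95% exact binomial interval 3.41 to 3.43) and 5.63% to 8.14% in the other 5 libraries. The targeted gene Cntnap4 measured 2.03, 3.59 and 4.91 FPKM across the WT replicates, against 1.61, 1.00 and 1.48 FPKM across the KO replicates, and its mean log2 difference was -1.05 ± 0.28 (limma adjusted p = 0.22). Whether these reads lie in the deleted part was not tested. The library labelled KO replicate 1 is labelled male, yet it held Xist at 43.0 FPKM and 0 reads on 4 Y-linked genes, where the other 5 libraries had 2831 to 4001. Tissue markers also differed between libraries. Rspo2, a marker of basolateral amygdala neurons, measured 0.414, 0.522 and 0.378 FPKM across WT, against 0.936, 1.09 and 0.718 FPKM across KO, and 4 hypothalamic markers summed to 952, 908 and 485 FPKM across WT, against 1065, 2.36 and 340.3 across KO. Summed over 8 excitatory neuron markers the range was 142 to 173 FPKM in WT and 224 to 413 in KO. Of these 8 markers, 7 had positive and 1 a negative log2 difference. Over 6 oligodendrocyte markers the range was 1190.0 to 1599 FPKM in WT and 722 to 1105 in KO. Striatal markers summed to 621 to 822 FPKM in WT and 899 to 1185 in KO, and choroid plexus markers to 28.0 to 32.8 in WT and 3.04 to 22.1 in KO. Blood markers summed to 126 and 118 FPKM in KO replicates 1 and 3 and to 54.6 to 70.0 in the other 4 libraries. No marker of these lists was at 0 in every library. Fewer cells of a type and less RNA per cell cannot be told apart in such pieces, and the part of these shifts in the results below was not tested.

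Ribosomal protein transcripts were abundant in both genotypes. Of the 79 genes, 76 had a mean of at least 0.5 FPKM and entered the test, with a median of 107 FPKM, and 66 lay between 30 and 300 FPKM. The stalk protein gene Rplp1 was highest at 1189.7 FPKM, rank 12 of all genes. Rps15, Rpl36 and Rpl41 followed at 561, 386 and 308 FPKM. At the other end stood Rps10 at 1.33, Rpl24 at 1.35, Rpl13a at 9.24, Rps27l at 15.5 and Rpl21 at 17.5 FPKM. Another annotated gene, at 0 FPKM, overlaps each of Rps10 (RPS10-NUDT3), Rpl24 (Gm28037) and Rpl13a (Gm45713) on the same strand. Rpl13 at 157 FPKM is overlapped in the same way by Gm20388, also at 0 FPKM. Whether counting lost reads shared by such genes was not tested, so low FPKM need not mean scarce transcripts. Rps10 and Rpl21 are taken up again below with their copies.

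The 3 genes outside the test are paralogues with restricted expression. Rpl3l, the muscle counterpart of Rpl3, had 10, 19 and 8 reads across WT, against 7, 8 and 6 across KO. Rpl39l, known from testis, had 0 to 2 reads in every library. Rpl10l, an autosomal testis copy of the X-linked Rpl10, had 0 reads in all 6, which allows up to 0.135 to 0.166 FPKM at 3 reads per library. The parents Rpl3, Rpl39 and Rpl10 stood at 203, 60.2 and 146 FPKM, so none of these paralogues came near its parent. Rps27l, a paralogue of Rps27 that is induced by p53, measured 13.4, 16.8 and 13.8 FPKM across WT, against 15.3, 15.8 and 18.2 FPKM across KO, with overlapping groups.

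Summed over all 79 genes, the groups overlapped. The genes took 1.50%, 1.73% and 1.49% of all reads across WT, against 1.82%, 1.39% and 1.77% across KO. The widest 95% exact binomial interval, in KO replicate 3, was 1.76 to 1.78. Group means were 1.57% ± 0.136 in WT and 1.66% ± 0.235 in KO (SD, n = 3 each). KO replicate 2 was the lowest of all 6 libraries, and KO replicates 1 and 3 were the highest, as they were for blood markers, whose part was not tested. Counted gene by gene, KO replicate 1 held the highest value for 35 of 76 genes and KO replicate 3 for 20. The lowest value fell in WT replicate 3 for 36 genes and in KO replicate 2 for 26. Relative to each gene's mean, the median gene stood at log2 -0.09, 0.10 and -0.15 across WT, against 0.20, -0.14 and 0.11 across KO. Other protein-coding genes had medians of -0.02 to 0.02 in the same libraries. WT replicate 3 and KO replicate 2, 1 library from each group, were the lowest by this measure, and WT replicate 3 also had the lowest mitochondrial share.

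**Figure D1:**
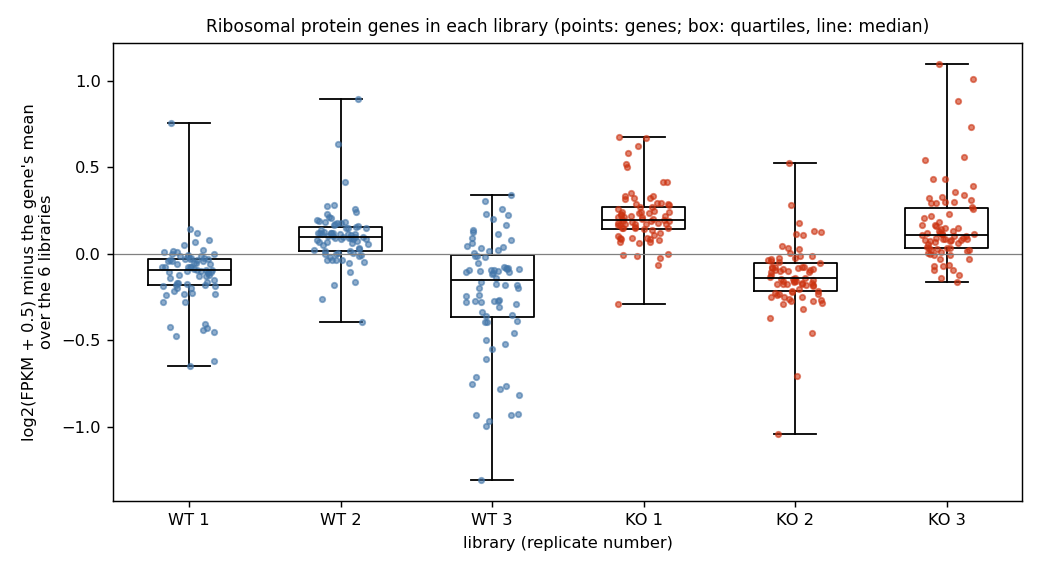
Deviation of each of the 76 tested ribosomal protein genes from its own mean, on the log2(FPKM + 0.5) scale (vertical axis), in each library (horizontal axis). Points are genes, boxes are quartiles with the median as a line and whiskers reach the extremes. The medians of WT replicate 3 and KO replicate 2 lie lowest, at -0.15 and -0.14, and that of KO replicate 1 highest, at 0.20.

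The comparison of KO with WT asks which of these transcripts differ in libraries labelled CNTNAP4-KO. No ribosomal protein gene passed limma's test with Benjamini-Hochberg adjustment over all 16155 genes tested, against 0.0124% of all genes, and voom on the recovered reads also called 0. At an unadjusted p under 0.05, 8 of the 76 were higher in KO, 10.5%, where 8.36% of all genes were. In the other direction 1 was lower, 1.32%, against 6.85% of all genes. Over all genes these shares became 4.09% higher and 8.17% lower after rescaling to an equal FPKM sum, and 6.20% and 10.1% with voom, while 8 members were higher in both settings. With FPKM as deposited, the members' share higher was near that of all genes. The median log2 difference was 0.12, beside 0.01 over all genes tested. Values were positive for 59 genes, 77.6%, against 51.5% of all genes, and negative for 17. The 60S genes had a median of 0.12 and the 40S genes 0.11. Groups lay fully apart for 6 genes higher in KO, 7.89%, against 11.8% of all genes, and for 1 gene lower, against 10.8%.

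These counts and the median depended on single libraries. Without WT replicate 1, WT replicate 2 or KO replicate 2 the count of higher genes was 5, 18 and 17, where 6.83%, 5.36% and 7.28% of all genes were higher. The count of lower genes was 0 without WT replicate 2, KO replicate 2 or KO replicate 3 and 3 without KO replicate 1. Of all genes, 4.06%, 5.99%, 6.20% and 6.28% were lower in those settings, in that order. The 1 lower gene, Rpl13a, was also lost without WT replicate 3 (limma unadjusted p = 0.0515), where Rps27a took its place (limma unadjusted p = 8.27e-05, adjusted p = 0.169). Leaving out KO replicate 1 gave a median of 0.04, WT replicate 3 gave 0.07, WT replicate 2 gave 0.18 and KO replicate 2 gave 0.21. It was 0.06 after rescaling to an equal FPKM sum, 0.04 after quantile normalization and 0.08 with voom, where all genes had medians of -0.04, -0.01 and -0.04.

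**Figure D2:**
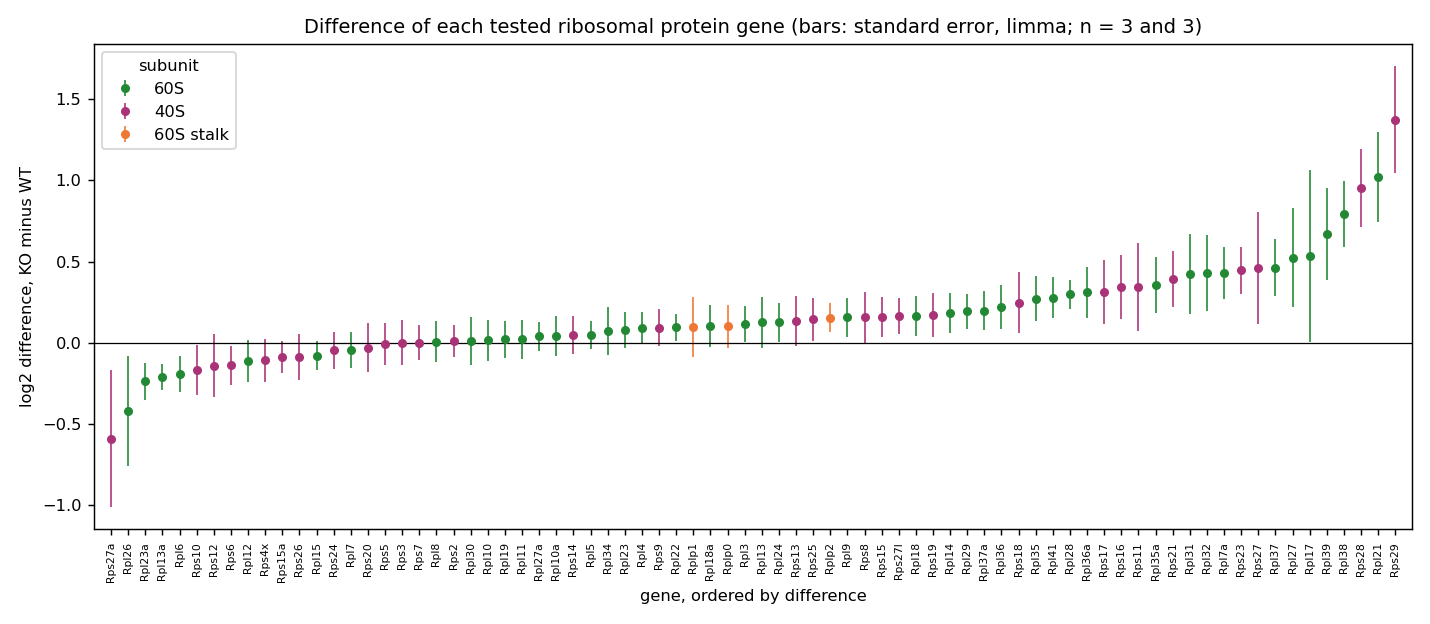
Log2 difference, KO minus WT (vertical axis), of each tested ribosomal protein gene, ordered by size (horizontal axis). Points are estimates from limma with standard errors as bars, coloured by subunit, and 59 of the 76 lie above 0, from Rps27a at -0.59 to Rps29 at 1.37.

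Among 40S genes, Rps29 and Rps28 had the smallest p. Rps29 encodes a zinc-binding protein of the head of the small subunit and lies on chromosome 12, 69157722 to 69159186, minus strand (ENSMUSG00000034892, GRCm38). It measured 139, 202 and 87.8 FPKM across the WT replicates, against 349, 265 and 468 FPKM across the KO replicates. Every KO library was above every WT library, and within KO the values were again lowest in replicate 2. Group means were 143 ± 57.3 FPKM for WT, against 361 ± 102 for KO (SD, n = 3 each), and the log2 difference of 1.37 ± 0.33 did not pass (limma unadjusted p = 0.00467, adjusted p = 0.205). Rps28, a protein at the channel through which mRNA leaves the ribosome, lies on chromosome 17, 33819027 to 33824562, minus strand. It measured 35.4, 47.1 and 25.3 FPKM across the WT replicates, against 70.0, 55.1 and 81.1 FPKM across the KO replicates, log2 0.95 ± 0.24 (limma adjusted p = 0.21). Its groups did not overlap, with WT replicate 2 and KO replicate 2 nearest to each other. Kank3 overlaps it on the opposite strand at 7.40 FPKM with a log2 difference of 0.13. The labels name no strand setting for counting. Rps23, which forms part of the centre that reads the codon, measured 181, 215 and 171 FPKM across WT, against 267, 213 and 296 FPKM across KO. KO replicate 2 lay just below WT replicate 2, so the groups overlapped (log2 0.45 ± 0.15, limma adjusted p = 0.254).

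Other 40S genes had larger p, with differences of either sign. Rps21 had 183, 278 and 201 FPKM across WT, against 303, 249 and 306 FPKM across KO, with overlapping groups. Rps6, the substrate of S6 kinase by which mTOR activity is usually read, measured 214, 236 and 236 FPKM across WT, against 244, 183 and 200.1 FPKM across KO (log2 -0.14 ± 0.12, limma adjusted p = 0.61). Its lowest values were KO replicates 2 and 3, while KO replicate 1 was the highest of all. Rps19, the gene most often mutated in Diamond-Blackfan anaemia, a failure of red cell production, measured 42.0 ± 4.69 FPKM for WT, against 47.5 ± 7.27 for KO with a log2 difference of 0.17.

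Rps27a encodes a 40S protein made as a fusion with ubiquitin, the tag for protein degradation. It measured 104, 115 and 36.0 FPKM across the WT replicates, against 50.3, 44.8 and 55.9 FPKM across the KO replicates. The values split WT itself, since WT replicates 1 and 2 were high and WT replicate 3 was below all KO libraries. The log2 difference was -0.59 ± 0.42 (limma adjusted p = 0.538) and became -1.12 without WT replicate 3, -0.29 without WT replicate 2 and -0.36 without WT replicate 1.

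Among 60S genes, the largest differences with groups apart were those of Rpl38 and Rpl21. Rpl38, known for its part in translating Hox mRNAs in the mouse embryo, lies on chromosome 11, 114668524 to 114672331, plus strand. It measured 166, 220.1 and 132 FPKM across the WT replicates, against 315, 242 and 327 FPKM across the KO replicates. The log2 difference was 0.79 ± 0.20 (limma unadjusted p = 0.00599, adjusted p = 0.21), with every KO library above every WT library. Rpl21 on chromosome 5, 146832890 to 146837032, plus strand measured 10.1, 11.9 and 10.9 FPKM across the WT replicates, against 25.4, 14.3 and 32.4 FPKM across the KO replicates, log2 1.02 ± 0.27 (limma adjusted p = 0.22). WT values were close together while KO replicate 2 lay only a little above them. Most reads named for Rpl21 fell in its copies, as described below. Rpl28 measured 74.4, 78.0 and 66.8 FPKM across WT, against 95.8, 88.6 and 85.3 FPKM across KO, a smaller difference of 0.30 ± 0.09 on the log2 scale with no overlap (limma adjusted p = 0.23).

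Rpl7a measured 21.9, 26.5 and 28.6 FPKM across WT, against 29.7, 43.0 and 32.4 FPKM across KO, log2 0.43 ± 0.16 (limma adjusted p = 0.286). Here KO replicate 2 was the highest library, unlike in the genes above. Rpl37, a zinc-binding protein, measured 102, 122 and 84.2 FPKM across WT, against 151, 113 and 161 FPKM across KO with overlapping groups, log2 0.46 ± 0.18 (limma adjusted p = 0.296). The small proteins Rpl39, which lines the exit tunnel for the growing chain, and Rpl41 had log2 differences of 0.67 ± 0.28 and 0.28 ± 0.13 and overlapping groups.

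Rpl13a was the 1 gene lower in KO at an unadjusted p under 0.05. Its protein is released from the ribosome on interferon signals to silence inflammatory mRNAs. It measured 9.56, 10.5 and 9.75 FPKM across the WT replicates, against 9.06, 7.94 and 8.60 FPKM across the KO replicates, with a log2 difference of -0.21 ± 0.08 (limma adjusted p = 0.291). The groups did not overlap, and the spread between replicates was the smallest of the 76 genes, SD 0.08 on the log2 scale. Rpl23a, which docks the signal recognition particle at the tunnel exit, measured 173, 195 and 200.3 FPKM across WT, against 173, 139 and 170.4 FPKM across KO (log2 -0.24 ± 0.11, limma adjusted p = 0.373). KO replicate 2 was lowest, and the groups overlapped because WT replicate 1 lay just below KO replicate 1. Rpl6 and Rpl15 had negative log2 values of -0.19 and -0.08, each with overlapping groups. Rpl26, known for binding the mRNA of p53, measured 170.1, 204 and 214 FPKM across WT, against 207, 81.7 and 183 FPKM across KO. KO replicate 2 stood far below the other 5 libraries. The log2 difference of -0.42 ± 0.34 was -0.01 without that library and -0.67 without KO replicate 1.

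**Figure D3:**
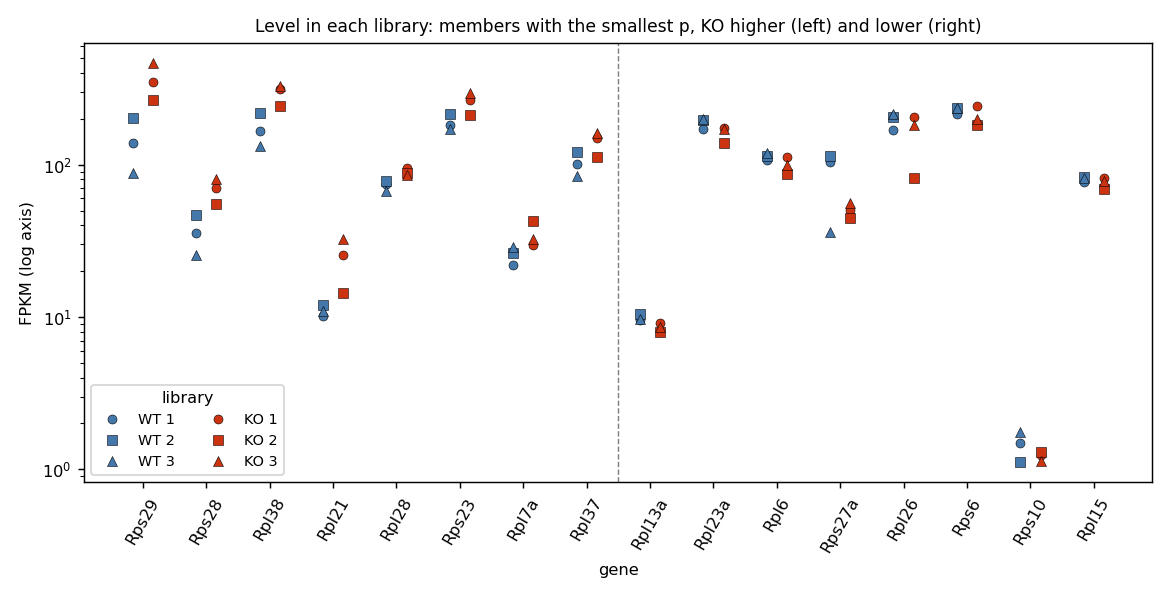
FPKM on a log axis (vertical) in every library for the 8 genes with the smallest p and higher values in KO (left of the dashed line) and the 8 with lower values (right). Blue marks WT and red KO, with 1 symbol shape for each replicate number. The KO points of Rps29, Rps28, Rpl38, Rpl21, Rpl28 and Rpl7a lie wholly above the WT points, while the blue points of Rps27a span 36.0 to 115 FPKM.

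The stalk and the 5S particle showed little difference. Rplp0, Rplp1 and Rplp2 form the lateral stalk that recruits elongation factors. Rplp1 measured 1165, 1409 and 897 FPKM across WT, against 1323, 1044 and 1300.4 FPKM across KO, and the log2 differences of the 3 were 0.10 ± 0.13, 0.10 ± 0.19 and 0.16 ± 0.09 (limma adjusted p from 0.451 to 0.838). Rpl5 and Rpl11 bind 5S rRNA and, when free, the p53 inhibitor Mdm2. Rpl5 measured 63.7 ± 4.07 FPKM for WT, against 65.9 ± 4.29 for KO and Rpl11 88.1 ± 6.54 FPKM for WT, against 89.9 ± 12.6 for KO (SD, n = 3 each). Their log2 differences of 0.05 ± 0.08 and 0.02 ± 0.12 were smaller than their standard errors.

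The median SD within groups was 0.18 on the log2 scale for the 76 genes and 0.15 for all genes tested. Rpl17, which lies near the tunnel exit, varied most (SD 0.84), followed by Rps27a (0.66), Rps27 (0.54), Rpl26 (0.53) and Rps29 (0.51). Rpl17 measured 68.8, 149 and 48.9 FPKM across WT, against 148, 58.5 and 177 FPKM across KO. It was high in WT replicate 2 and KO replicates 1 and 3 and low in the other 3 libraries, a split that cut across genotype. Rps27 measured 150.0, 145 and 70.9 FPKM across WT, against 204, 111 and 178 FPKM across KO, with WT replicate 3 lowest and KO replicate 1 highest.

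Shorter genes had higher differences. The deposited gene length, which is given per gene and not per mRNA, ran from 383 bases (Rpl36) to 6270 bases (Rps15a) over the tested genes. Their median was 1755 bases, beside 4434 for other protein-coding genes tested. Across the 76 genes the log2 difference and the length had a Spearman correlation of -0.40, a description only, since genes share libraries and depth. Leaving out Rps29, Rps28, Rpl38 and Rpl21 gave -0.39. In the 11 genes under 1000 bases the median difference was 0.35, in the 15 genes from 1000 to 1499 bases it was 0.27, and in the 14 genes of 3000 bases or more it was 0.03.

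Other protein-coding genes showed a weaker trend. Over all 13300 of them the correlation was -0.11, and over the 2407 of at least 20 FPKM it was -0.03. In the class under 1000 bases the 116 other genes of at least 20 FPKM had a median of 0.09. From 2000 to 2999 bases the medians were 0.04 for 19 ribosomal protein genes and 0.06 for 475 others at that level.

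A negative relation also appeared between replicates of 1 genotype. All 9 pairs of a KO with a WT library gave negative correlations between length and difference, from -0.18 to -0.41. The 3 strongest involved WT replicate 3. Yet WT replicate 1 minus WT replicate 3 gave -0.32 and WT replicate 2 minus WT replicate 3 gave -0.36, so WT replicates 1 and 2 differed from WT replicate 3 in the direction in which KO did. WT replicate 1 minus WT replicate 2 gave 0.26. Pairs within KO gave 0.02 to 0.18. Without WT replicate 3 the correlation over the 76 genes was -0.29.

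**Figure D4:**
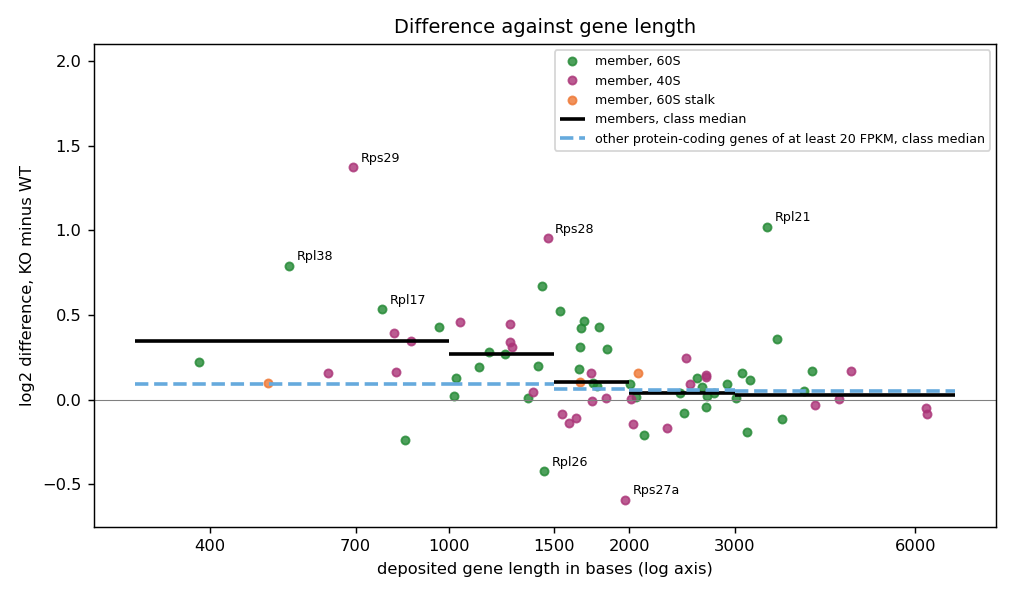
Log2 difference, KO minus WT (vertical axis), against deposited gene length in bases on a log axis (horizontal). Points are the 76 tested ribosomal protein genes by subunit, black lines their medians in 5 length classes and dashed lines the medians of other protein-coding genes of at least 20 FPKM. The black line falls from 0.35 under 1000 bases to 0.03 at 3000 bases or more, while the dashed line stays between 0.05 and 0.09.

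Many ribosomal protein genes have near-identical processed copies elsewhere in the genome, left by reverse transcription of their mRNAs. The table held 386 rows named as copies of 65 of the 79 genes, and 200 of these had reads. For most genes the copies held a small share, under 10% of the reads of gene and copies together for 67 genes. For Rps10, a 40S protein, 95.5% of reads lay in copies. Rps10 itself had 63, 46 and 88 reads across WT, against 54, 54 and 46 across KO, whereas its copy Rps10-ps2 (chromosome 16, 20822145 to 20822640, minus strand) measured 128, 137 and 132 FPKM across WT, against 138, 111 and 113 FPKM across KO. Rpl17 had 71.7% of reads in copies and Rpl21 54.4%. The labels do not say how reads that match several places were assigned, so a gene and its copies cannot be told apart where they share sequence.

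**Figure D5:**
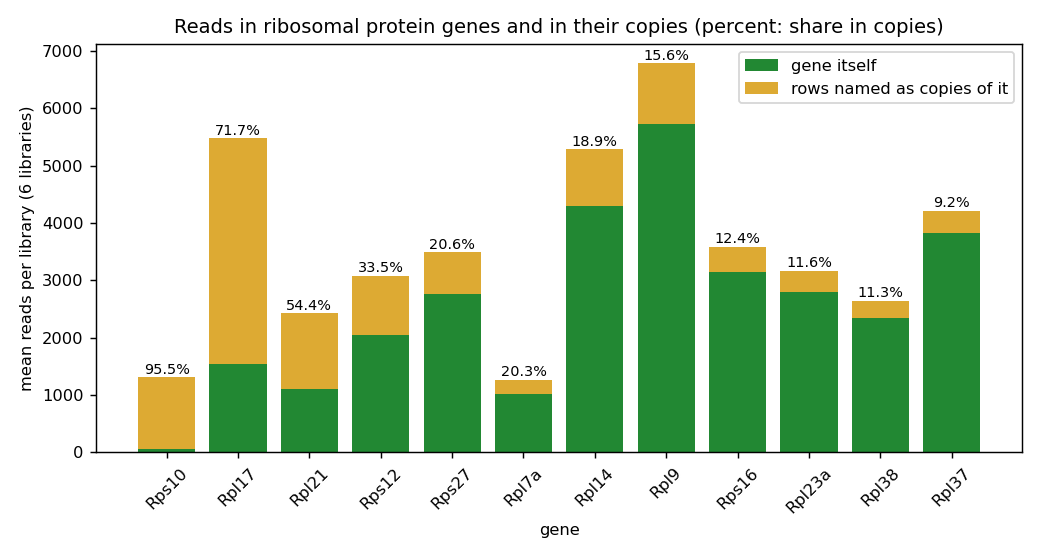
Mean reads per library over the 6 libraries (vertical axis, from 0) for the 12 genes with the largest share in copies (horizontal axis). Green is the gene and yellow the rows named as its copies, with the share in copies printed above each bar, from 95.5% for Rps10 to 9.2% for Rpl37.

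Adding the reads of copies to their gene, a choice made after seeing the data, changed some differences and left others. Rpl21 with its copies had 1835, 2264 and 2384 reads across WT, against 3081, 1929 and 3045 across KO. The groups then overlapped, and the log2 difference was 0.37 ± 0.19 (limma adjusted p = 0.402) in place of 1.02. Its main copy Rpl21-ps15 measured 122, 156 and 137 FPKM across WT, against 145, 109 and 111 FPKM across KO, a log2 difference of -0.18, opposite in sign to the gene. Rpl7a with copies had a difference of 0.50 ± 0.11 (limma adjusted p = 0.196), and Rpl38 with copies 0.79 ± 0.19. Rps29 and Rps28 have almost no reads in copies, and their values stayed at 1.37 and 0.95. At an unadjusted p under 0.05 the count was again 8 higher and 1 lower, with Rpl39 in place of Rpl21. Of all genes, 8.32% were higher and 6.88% lower in that setting.

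Single copies differed with either sign. Of 80 copies tested, 16 were higher and 6 lower at an unadjusted p under 0.05, 20% and 7.5%, beside 8.36% and 6.85% of all genes, and 0 passed over all genes by limma. Rpl38-ps2 measured 47.1, 58.0 and 55.5 FPKM across WT, against 91.9, 76.5 and 121 FPKM across KO, log2 0.82 ± 0.17, close to the difference of Rpl38. Rps12-ps3 measured 117, 136 and 139.5 FPKM across WT, against 98.4, 73.6 and 73.0 FPKM across KO, log2 -0.69 ± 0.14, lower in every KO library, while Rps12 itself had a difference of -0.14. Rps27rt, a retrotransposed copy of Rps27, measured 39.3, 157 and 112 FPKM across WT, against 73.5, 163 and 62.2 FPKM across KO. Its 3 lowest values were in WT replicate 1 and KO replicates 1 and 3, the 3 libraries highest for Rps27.

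Genes for ribosomal proteins that the name rule does not take did not share the positive median. Of 8 tested genes, 2 had positive and 6 negative differences, with a median of -0.09. At an unadjusted p under 0.05, 0 were higher and 1 was lower (12.5%), beside 8.36% and 6.85% of all genes. The lower one, Rps3a1, encodes a 40S protein and has many near-identical copies. It measured 382, 457 and 508 FPKM across the WT replicates, against 436, 205 and 242 FPKM across the KO replicates, log2 -0.68 ± 0.28 (limma adjusted p = 0.324). KO replicates 2 and 3 were low, whereas KO replicate 1 lay within the WT range. Rpl22l1, the paralogue of Rpl22, had -0.20 ± 0.10, and Rpsa, which also serves as a laminin receptor, -0.13 ± 0.11. Fau, whose product is cut into the 40S protein Rps30, measured 254, 275 and 271 FPKM across WT, against 325, 244 and 302 FPKM across KO.

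The factors that work with the ribosome had small median differences, while single genes among them differed more. None of the genes in the following lists passed over all genes, of which 8.36% were higher and 6.85% lower at an unadjusted p under 0.05. Across 15 elongation and release factors the median difference was -0.03, with 0 higher and 2 lower by that measure (13.3%). The 2 were Eif5a2 (-0.35 ± 0.07), a paralogue of the hypusine-carrying Eif5a, and Eef1e1 (-0.24 ± 0.09), a scaffold of the tRNA synthetase complex, while Eif5a itself stood at 0.15 ± 0.07. Initiation factors had a median of 0.04 over 41 genes, with 5 higher (12.2%) and 1 lower (2.44%). Eif4ebp1, the repressor of cap binding that mTOR switches off, measured 0.786 ± 0.159 FPKM for WT, against 1.52 ± 0.211 for KO, log2 0.65 ± 0.15. Eif6, which keeps 60S subunits from joining too early, had 0.26 ± 0.07 and Eif3j1 -0.34 ± 0.10.

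Genes that build ribosomes had a median of 0.03 over 50 genes, with 6 higher (12%) and 1 lower (2%), beside 8.36% and 6.85% of all genes. Gar1 (0.47 ± 0.07) and Nop10 (0.49 ± 0.16) belong to the complex that converts uridines of rRNA to pseudouridine, and Rrp1 (0.28 ± 0.08) to 60S maturation. Gar1 measured 8.03, 8.27 and 7.68 FPKM across WT, against 11.7, 10.9 and 11.3 FPKM across KO, with no overlap between groups. In mTOR signalling the median was 0.04 over 24 genes, with 5 higher (20.8%) and 1 lower (4.17%). Ddit4, a stress-induced inhibitor of mTOR, measured 32.3, 39.8 and 27.7 FPKM across WT, against 76.3, 42.5 and 56.6 FPKM across KO (log2 0.78 ± 0.23, limma adjusted p = 0.23). Rps6ka2 (0.31 ± 0.11), a kinase of the ERK pathway, and Sesn1 (0.22 ± 0.08), an inhibitor of mTOR, followed. Each of these 3, named for their small p, had its 3 KO values above its 3 WT values. The same held for 5 of the 24 genes (20.8%) and for 11.8% of all genes.

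Hosts of small nucleolar RNAs, many of whose transcripts share the pyrimidine start, had a median of 0.11 over 16 genes. At an unadjusted p under 0.05, 3 were higher (18.8%) and 1 lower (6.25%), beside 8.36% and 6.85% of all genes. Snhg8 had 0.80 ± 0.24, Snhg14 -0.55 ± 0.17 and Snhg12 0.49 ± 0.15. By position, 54 annotated snoRNA rows overlapped 28 of the ribosomal protein genes, not all on the same strand. Mitochondrial ribosomal proteins, which serve the separate ribosome of mitochondria, had a median of 0.05 over 77 genes, with 2 higher and 2 lower (2.60% each). Mrpl16 had 0.31 ± 0.07, Mrpl35 -0.29 ± 0.07 and Mrpl33 -0.36 ± 0.11. No difference between these lists and the cytosolic ribosomal protein genes was tested.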

How the data were processed

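RNA was taken from tissue labelled basolateral amygdala of mice, as 3 WT and 3 KO samples, and a SMARTER kit was used for mRNA sequencing, per the labels' protocols. The authors deposited 1 table of FPKM values, with the genome build GRCm38 (mm10) per the submitters' processing notes. For the aligner, counting program, annotation release and strand setting, nothing was given in the sources used here. FPKM times gene length came out as whole reads for 100% of nonzero values within 0.01 read. Every per-sample column matched a label, leaving 0 unused.

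KO was compared with WT by limma-trend with robust moderation (limma 3.58.1, R 4.3.3) on log2(FPKM + 0.5), over the 16155 genes averaging 0.5 FPKM or more, with Benjamini-Hochberg adjustment and a threshold of 0.05. Log2 differences carry standard errors, and understate changes of low genes. On simulated reads over 16198 genes 87% of 2-fold and 97% of 4-fold changes were recovered beside 19 false calls. With nothing changed, 3 genes were called. The simulation gave every gene the same spread beyond counting error and planted changes only in genes with many reads. In the libraries the SD within groups ran from 0.08 for Rpl13a to 0.84 for Rpl17 among members. The shares recovered therefore need not hold for these libraries. The labels do not say whether replicates are separate animals, so p-values measure only how these libraries vary. KO replicate 1 differs from the other KO libraries in Xist and Y-linked reads, so the KO libraries are not all repeats of 1 sample. Intervals for shares, and the limit set by 3 reads, account for counting error alone.

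The members and lists were chosen with earlier results of these data known. The naming rule took the 8 members with the smallest p in each direction, the 4 highest, lowest, shortest and longest, the paralogues ending in l with their parents, stalk genes, Rps6, Rpl5, Rpl11 and Rps27a, and up to 3 genes with the smallest p per list, of which the text gives examples. Rps21, Rpl41, Rpl17, Rps27, Rps12, the copies, Rps4x, Rpl36a, Kank3, Fau, Eif5a and 2 snoRNAs were named after their values were seen. So were Rpl13 and the genes annotated over Rps10, Rpl24, Rpl13a and Rpl13. Alternatives changed the pseudocount, filter, scaling, moderation, weights, genes tested or length trend, used voom, a replicate block or copies summed with their gene, or left out 1 library.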

Additional observations from a re-analysis of the deposited data

How the results depend on the processing

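No ribosomal protein gene passed the adjusted threshold under any of the 20 alternatives. The 16 members with the smallest p, 8 in each direction, kept the sign of their difference wherever they were tested (319 values). The weakest values were -0.01 for Rpl26 and Rpl15. These members were picked from the same libraries that the alternatives refit, so the kept signs are no independent support. The count higher at an unadjusted p under 0.05 was 16 with array quality weights, where 9.63% of all genes were higher. It was 5 to 18 when 1 library was left out, where 5.36% to 7.74% of all genes were higher. The count lower was 4 with quantile normalization, 2 with the gene length trend removed and 2 with voom. Of all genes, 8.21%, 7.40% and 10.1% were lower in these settings. When 1 library was left out the count lower was 0 to 3, where 4.06% to 6.69% of all genes were lower. Over the same omissions the median ran from 0.04 to 0.21 and the correlation with length from -0.41 to -0.29. Removing the length trend of all genes left the correlation at -0.36 and the median at 0.10. The share of all genes higher at an unadjusted p under 0.05 was 4.09% after rescaling to an equal FPKM sum, beside 8.17% lower, and all genes called numbered 0 to 9 over the alternatives.

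Same-numbered libraries did not deviate together (correlations of -0.09, -0.14 and -0.07). With 3 libraries per group, such values cannot show whether the numbers pair the samples. With the replicate block 6 members were higher and 0 lower at an unadjusted p under 0.05, and 0 passed after adjustment. Of all genes, 5.66% were higher and 4.64% lower with that block. No library correlated best with its own number. The causes of these shifts were not tested. Depth limits Rps10, Rpl24 and the untested paralogues, which rest on fewer than 100 reads per library.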

Other observations

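Values of the 4 X-linked members are given because the library labelled KO replicate 1 carries Xist. Rps4x measured 152, 174 and 195 FPKM across WT, against 185, 141 and 159 FPKM across KO. Rpl10 measured 145, 162 and 128 FPKM across WT, against 164, 129 and 147 FPKM across KO, and Rpl36a 52.5, 62.9 and 44.8 FPKM across WT, against 69.9, 54.8 and 74.1 FPKM across KO. Rpl39 measured 47.0, 65.5 and 29.9 FPKM across WT, against 76.4, 59.1 and 83.4 FPKM across KO, with the highest log2 difference of the 4 at 0.67. KO replicate 1 was the highest KO library for Rps4x and Rpl10, and KO replicate 3 was for Rpl36a and Rpl39. The groups overlapped for all 4.

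Snord72 lies in Rpl37 and had a log2 difference of -0.83 (limma unadjusted p = 0.0116, adjusted p = 0.230), opposite in sign to its host at 0.46. Snord58b lies in Rpl17 and had 1.49 (limma unadjusted p = 0.00480, adjusted p = 0.205), with its host at 0.53. Both were picked after their values were seen, and they averaged 4.70 and 3.43 FPKM in libraries made for mRNA.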
